A study of Oryza sativa with 18 samples.

Results

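Open chromatin in the outermost megabase of the rice chromosomes was examined in a list of accessible regions from leaves. A region was taken when its midpoint lay within 1 Mb of a chromosome end. The higher-coordinate end of each of the 12 chromosomes was used, together with the lower-coordinate end of chromosomes 1, 2, 3, 5, 6, 7 and 8, which makes 19 ends. This gave 1896 regions out of 29978 in the whole list, of which 29831 lay on the 12 chromosomes. Their values were set against the 3955 regions whose midpoints lay 1 to 3 Mb from the same 19 ends.

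A plant chromosome ends in telomere repeats, and the sequence next to them is the subtelomere. In rice the chromosome arms are mostly gene-bearing euchromatin, while the repeat-rich heterochromatin is gathered around the centromeres and on a few short arms. Accessible chromatin in plant leaves lies largely at the regulatory sequences of genes, where the DNA is not wrapped around histones and can be cut by an enzyme. ATAC-seq finds such sites with a transposase that inserts sequencing adapters into exposed DNA.

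The plants were of the variety Azucena, grown hydroponically at 30 °C with 12 h of light, and the second leaf was taken at an age of 14 days. There were 18 libraries in 9 groups of 2 biological replicates. Controls stayed in liquid at 30 °C and were sampled at 0.5, 2 and 4 h, and heated plants at the same times after a move to 40 °C. For heat recovery, plants spent 2 h at 40 °C and then 2 h at 30 °C. Dehydrated plants had their roots in air for 2 h, and dehydration recovery meant 1.5 h in air and then 2 h in liquid. The list analysed here pools all of them and has no value for any library, so the treatments could not be compared at the chromosome ends, and the depth behind each region is unknown. Errors below are spreads over chromosomes or chromosome ends of a single list, which are not biological replicates.

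The density of open regions in the outermost megabase did not differ detectably from that in the sequence next to it. The 19 ends held 99.8 regions per Mb ± 29.6 (SD, n = 19 ends), with a lowest value of 28, a median of 96 and a highest of 159. The adjoining 1 to 3 Mb held 104.1 regions per Mb ± 22.5 (SD, n = 19 ends), with a lowest value of 32, a median of 106.5 and a highest of 137.5. The ranges of the outermost and adjoining sequence overlapped almost completely. Averaged first within and then over chromosomes, the density was 0.94 times that of the adjoining sequence (mean log2 ratio -0.09 ± 0.29, SD, n = 12 chromosomes; 95% interval of the ratio 0.83 to 1.07). It was below 1 on 7 chromosomes and above 1 on 5 (exact permutation test by sign flips of the 12 chromosomes, two-sided, p = 0.291, adjusted p = 0.346 over 7 tests). The direction of this small difference depended on the window and on the ends used. With the outermost 2 Mb against 2 to 6 Mb the mean log2 ratio was 0.0095, and with all 24 ends it was 0.016. Without chromosome 7 it was -0.15 (exact permutation test, n = 11 chromosomes, p = 0.0342, adjusted p = 0.0798).

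**Figure D1:**
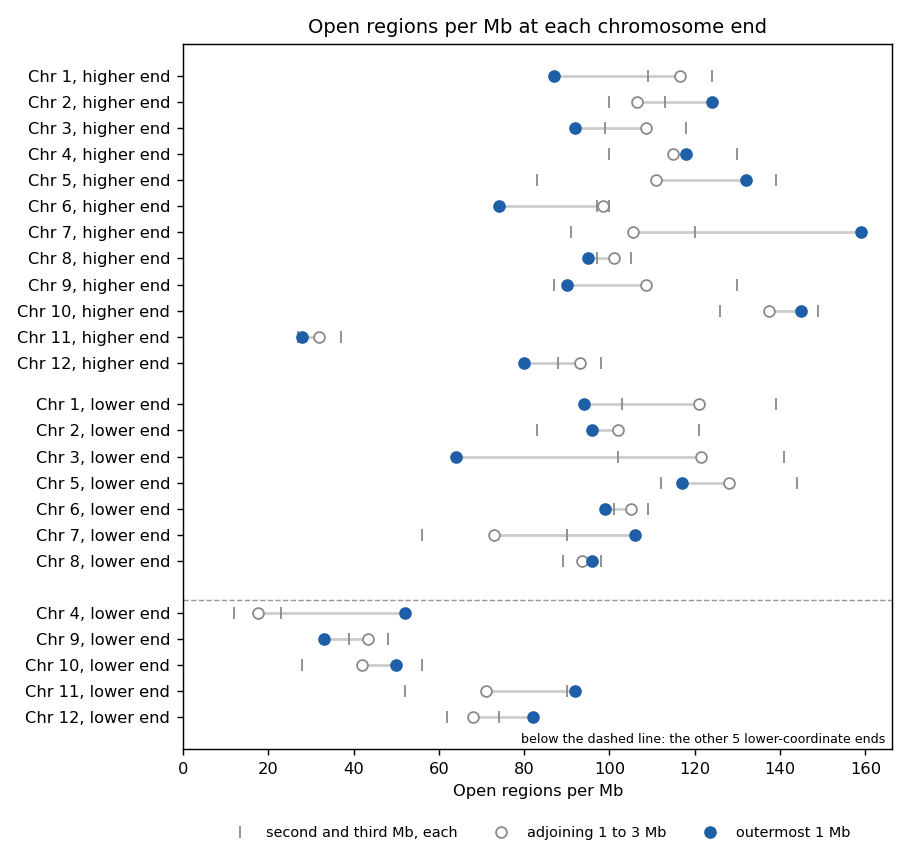
Open regions per Mb at each chromosome end: filled points are the outermost 1 Mb, open points the adjoining 1 to 3 Mb, and ticks each of its 2 megabases taken singly. Chromosome 7 has the fullest higher-coordinate end, at 159 regions, and chromosome 11 the emptiest, at 28; the 5 ends below the dashed line are not among the 19.

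The ends differed widely among themselves. The higher-coordinate end of chromosome 7 was the richest, with 159 regions in the outermost megabase, against 120 and 91 in the next 2. No other of the 29 whole megabases counted from that end held more. The higher-coordinate end of chromosome 10 followed with 145 regions, between the 126 and the 149 of the next 2 megabases, and 1 of its 23 megabases held more. Chromosome 5 had 132 regions at the higher-coordinate end, where the next megabases held 139 and 83.

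At the other extreme, the higher-coordinate end of chromosome 11 held 28 regions, with 37 and 27 in the next 2 megabases. The whole stretch was sparse there, since 24 of the 28 megabases counted from that end held more than the outermost one. The lower-coordinate end of chromosome 3 had 64 regions, whereas the next 2 megabases held 141 and 102, a ratio to the adjoining sequence of 0.53. Of the 36 megabases of chromosome 3, 32 held more than this end. The higher-coordinate end of chromosome 6 was also low, at 74 regions, below the 100 and 97 of the next megabases. The other higher-coordinate ends lay between these, with 124 regions on chromosome 2, 118 on chromosome 4, 95 on chromosome 8, 92 on chromosome 3, 90 on chromosome 9 and 80 on chromosome 12. On the lower-coordinate side, chromosome 5 held 117 regions, chromosome 6 held 99, and chromosomes 2 and 8 held 96 each. Of the 19 ends, 3 held more regions than either of the next 2 megabases, 8 held fewer than either, and 8 lay between them.

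Both ends of chromosome 7 were richer than their surroundings. Its lower-coordinate end held 106 regions, against 56 and 90 in the next 2 megabases. The ratio to the adjoining sequence was 1.45 there and 1.51 at the other end. Both ends were poorer than their adjoining sequence on chromosomes 1, 3 and 6. The ratios at the lower-coordinate and higher-coordinate ends were 0.53 and 0.85 on chromosome 3, 0.78 and 0.75 on chromosome 1, which held 94 and 87 regions there, and 0.94 and 0.75 on chromosome 6.

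The 2 sides of a chromosome could be compared on the 7 chromosomes with both ends in the set. The higher-coordinate end held 1.12 times as many regions as the lower-coordinate one (mean log2 ratio 0.16 ± 0.36, SD, n = 7 chromosomes; 95% interval of the ratio 0.86 to 1.44). It held more on 4 chromosomes and fewer on 3 (exact sign-flip permutation test, two-sided, p = 0.297, adjusted p = 0.346; the smallest p that 7 chromosomes allow is 0.0156). The median end held 93.5 regions among the 12 higher-coordinate ends and 96 among the 7 lower-coordinate ends.

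Compared with the inner chromosome, more than 3 Mb from both ends, the outermost megabase had a mean density ratio that did not pass the test. The ratio was 1.25 (log2 ratio 0.32 ± 0.60, SD, n = 12 chromosomes; 95% interval of the ratio 0.96 to 1.62), and it exceeded 1 on 9 of the 12 (exact sign-flip permutation test, two-sided, p = 0.0864, adjusted p = 0.221). Single ends ran from 0.52 times the inner density at the higher-coordinate end of chromosome 11 to 2.50 times at that of chromosome 10, whose inner part held 58.0 regions per Mb. Chromosomes 1, 3 and 11 were those with a mean ratio below 1. Pooled over the 19 ends, the outermost megabase made up 5.10% of the chromosomal sequence, measured to the last region, and held 6.36% of the chromosomal regions. The adjoining 1 to 3 Mb likewise made up 10.2% of the sequence and held 13.3% of the regions.

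Within the outermost megabase the regions were spread unevenly. The 100 kb nearest the end held 7.63 regions ± 3.80 (SD, n = 19 ends) and the next 100 kb held 12.1 ± 5.78, while the remaining steps up to 1 Mb held between 8.05 and 12.7 on average. The lower-coordinate ends alone held 6.14 ± 3.67 regions in the first 100 kb and 14.9 ± 5.61 in the second (SD, n = 7 ends), and the higher-coordinate ends 8.50 ± 3.75 and 10.5 ± 5.47 (SD, n = 12 ends). Within ends, the second 100 kb held 8.71 ± 5.31 regions more than the first on the lower-coordinate side (SD, n = 7 ends), with more at 6 ends and equal numbers at 1. On the higher-coordinate side it held 2.00 ± 5.13 more (SD, n = 12 ends), with more at 6 ends, fewer at 5 and equal numbers at 1. This step was singled out after the values had been seen, so it was not tested. Steps further in varied as well. Over the 19 ends the mean was 12.9 at 1100 to 1200 kb and 8.47 at 1300 to 1400 kb. At the 7 lower-coordinate ends it was 6.71 ± 5.09 at 1300 to 1400 kb and 18.1 ± 10.7 at 1700 to 1800 kb (SD, n = 7 ends). Distances at the lower-coordinate side were counted from base 1, and at the higher-coordinate side from the last region, which puts a region at distance 0 there by construction. The number of regions showed no clear step at 1 Mb. The 100 kb just inside this limit held 10.1 ± 7.13 regions and the 100 kb just outside it 9.84 ± 5.52 (SD, n = 19 ends). The pooled median widths were 222 bp just inside and 211 bp just outside.

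**Figure D2:**
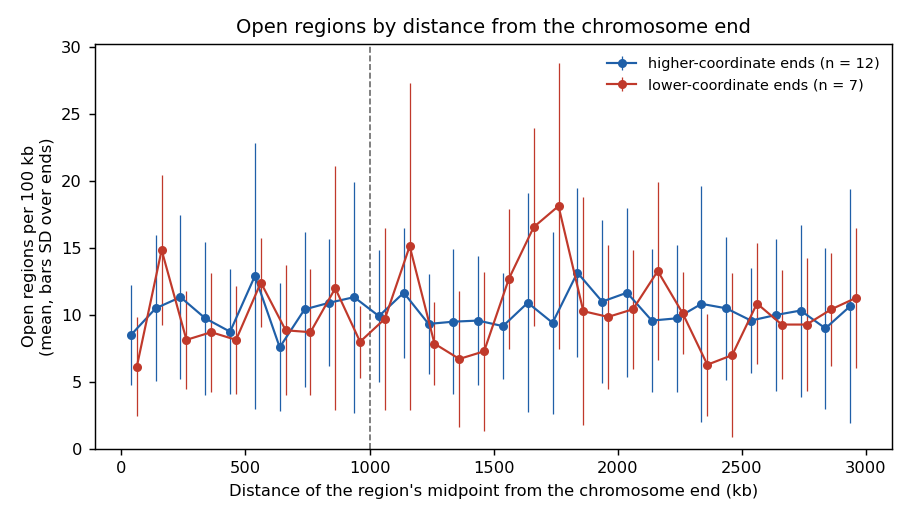
Mean number of open regions in steps of 100 kb from the chromosome end, with bars of 1 SD over ends; the dashed line marks 1 Mb. The first step averages 8.50 regions at the 12 higher-coordinate ends and 6.14 at the 7 lower-coordinate ends, and the second 10.5 and 14.9.

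Single pieces of 100 kb ranged from 0 to 33 regions, with a median of 9 over 190 pieces. The fullest lay 900 to 1000 kb from the higher-coordinate end of chromosome 7, with 33 regions, and the next 500 to 600 kb from that of chromosome 4, with 29. There were 13 pieces with 20 regions or more. Of the 5 pieces without any region, 4 belonged to the higher-coordinate end of chromosome 11 and 1 to that of chromosome 6. Empty and full pieces were not particular to the outermost megabase. From 1400 to 1500 kb, 3 of the 19 ends had no region, and from 1700 to 1800 kb the fullest piece held 40. The end of chromosome 11 kept 12 and 8 of its 28 regions in the first and second 100 kb, so its outermost part was not empty but ended in a sparse stretch further in. The higher-coordinate end of chromosome 10 had no such gaps, with 12 to 17 regions in each of its 10 pieces.

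**Figure D3:**
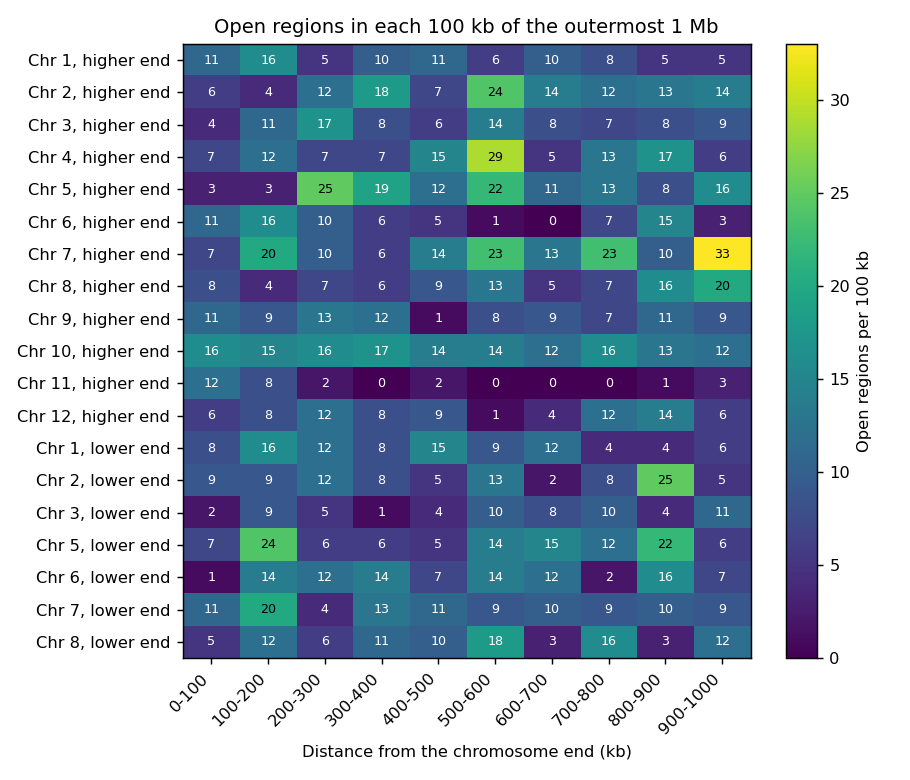
Number of open regions in each 100 kb of the outermost 1 Mb, with chromosome ends in rows and distance from the end in columns. Most of the higher-coordinate end of chromosome 11 is at 0 to 3 regions beyond 200 kb, whereas that of chromosome 10 holds 12 to 17 throughout.

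The longest stretches without a region followed the same ends. On chromosome 11 the stretch from 28118819 to 28496469 spanned 377.7 kb, and the next one, from 28501128 to 28721212, spanned 220.1 kb. Chromosome 3 had an empty stretch of 157.1 kb from 308763 to 465816, and chromosome 6 one of 156.7 kb from 30619786 to 30776517. The longest stretch within an end averaged 99.2 kb ± 73.9 (SD, n = 19 ends), and the shortest of these was 39.5 kb. The median distance between neighbours was 4266 bp over 1877 gaps.

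At the lower-coordinate ends the first open region lay 8.49 to 66.3 kb from base 1. It began at 8491 on chromosome 2, at 10897 on chromosome 1, at 12737 on chromosome 7 and at 37937 on chromosome 5. Chromosomes 6, 8 and 3 began later, at 50873, 53911 and 66325. The first regions of chromosomes 7, 5 and 6 were 668, 294 and 284 bp wide, each with a peak value of 18, and that of chromosome 8 was 190 bp wide with a peak value of 15. Those of chromosomes 1, 2 and 3 were 82, 82 and 89 bp wide with peak values of 13, 14 and 13. The peak value is a whole number given for each region in the list, from 10 to 18. The list does not define it, and its upper limit equals the number of libraries.

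The share of sequence covered by open regions was 2.53% ± 0.73 in the outermost megabase and 2.73% ± 0.66 in the adjoining sequence (SD, n = 19 ends). It ran from 0.81% at the higher-coordinate end of chromosome 11 to 4.09% at that of chromosome 7, with a median of 2.35%. The difference averaged -0.21 percentage points ± 0.51 (SD, n = 12 chromosomes; 95% interval -0.51 to 0.12), and the share was lower at the end on 9 of the 12 (exact sign-flip permutation test, two-sided, p = 0.172, adjusted p = 0.301). Chromosome 7 had the highest difference of the 12, 1.03 percentage points, and without it the difference was -0.32 (exact permutation test, n = 11 chromosomes, adjusted p = 0.0479). At the 12 higher-coordinate ends alone the mean difference was 0.014 percentage points, while 6 of the 7 lower-coordinate ends had a lower share than their adjoining sequence. Whether the sides differ in this was not tested.

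The median width of open regions at the ends was lower than next to them before adjustment for the number of tests, and the difference did not pass after it. The median width at an end was 202.2 bp ± 13.1 in the outermost megabase and 211.6 bp ± 17.1 in the adjoining sequence (SD, n = 19 ends). It ran from 181 bp to 227 bp, with a median of 204 bp, against 176 bp to 246 bp, with a median of 215 bp, further in. The mean difference was -10.4 bp ± 12.99 (SD, n = 12 chromosomes; 95% interval -18.75 to -1.75), negative on 9 of the 12 (exact sign-flip permutation test, two-sided, p = 0.0200, adjusted p = 0.140). The call depended on which ends and chromosomes were used. Over all 24 ends the difference was -14.6 bp (exact permutation test over 12 chromosomes, adjusted p = 0.0410), and without chromosome 7 it was -11.6 bp (exact permutation test, n = 11 chromosomes, adjusted p = 0.0479). Over the 12 higher-coordinate ends alone it was -3.42 bp (exact permutation test, adjusted p = 0.863).

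By side, 6 of the 7 lower-coordinate ends had a lower median width than their adjoining sequence. Over the 7 ends the median widths averaged 198.9 bp ± 15.6 in the outermost megabase and 218.5 bp ± 12.9 in the adjoining sequence (SD, n = 7 ends). The gap was widest on chromosome 1, at 181.5 bp against 218.5 bp, and the exception was chromosome 3, at 208 bp against 207 bp. Of the 12 higher-coordinate ends, 7 were narrower and 5 wider, from 201.5 bp against 234 bp on chromosome 9 to 227 bp against 192 bp on chromosome 7. The difference between the 2 sides was not tested.

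**Figure D4:**
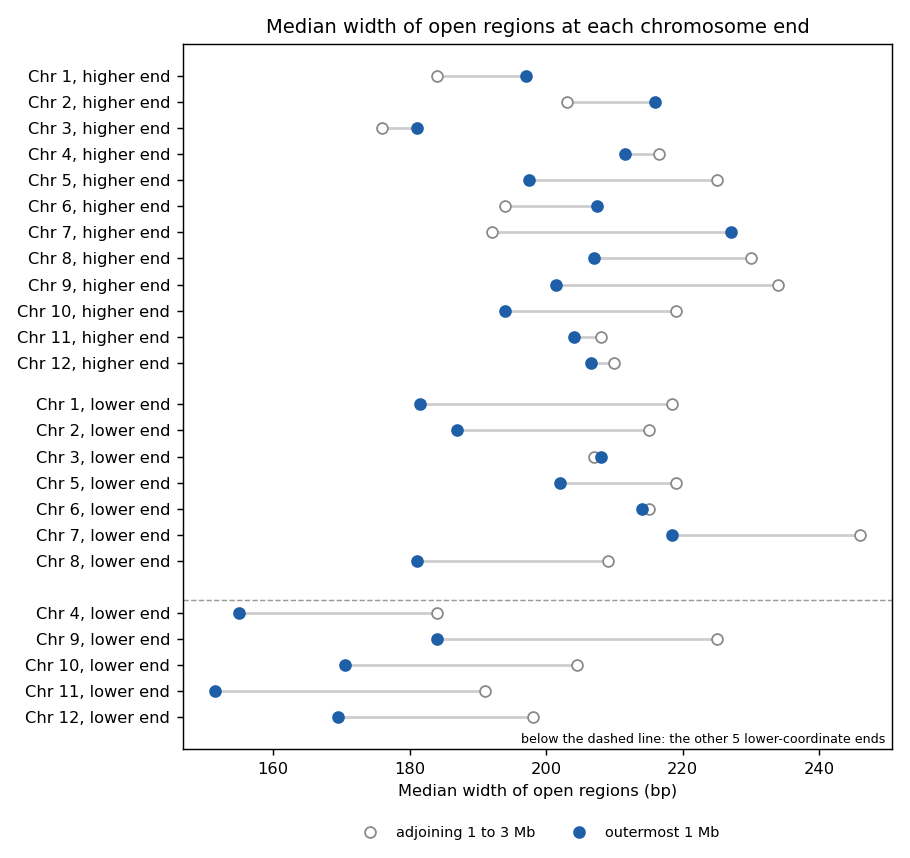
Median width of the open regions in the outermost 1 Mb (filled) and the adjoining 1 to 3 Mb (open) of each end; the axis does not start at 0. Filled points lie left of the open ones at 13 of the 19 ends and at all 5 ends below the dashed line.

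The pooled widths differed little in shape. The quartiles were 108 and 324.25 bp in the outermost megabase, 117 and 337 bp in the adjoining sequence, and 111 and 340 bp in the inner chromosome. Regions under 150 bp made up 35.7% of the 1896 regions, 34.6% of the adjoining ones and 35.5% of the inner ones. Regions of exactly 72 bp, the smallest width in the list, were 6.49%, 5.79% and 6.57% of the 3 sets.

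The share of regions at the highest peak value did not differ detectably between the ends and the adjoining sequence. The share at 18 was 18.6% ± 3.15 in the outermost megabase, from 13.7% at the higher-coordinate end of chromosome 8 to 25% at that of chromosome 11, and 21.2% ± 4.68 in the adjoining sequence (SD, n = 19 ends). The mean difference was -2.49 percentage points ± 4.70 (SD, n = 12 chromosomes; 95% interval -5.53 to 0.59), negative on 8 of the 12 (exact sign-flip permutation test, two-sided, p = 0.0947, adjusted p = 0.221). The lower classes did not all shift one way. Of the outermost regions 2.06% had a value of 11, against 1.31% of the adjoining and 1.53% of the inner regions. A value of 12 was held by 8.70%, 7.64% and 7.96% of the 3 sets, one of 13 by 12.7%, 14.1% and 13.9%, and one of 14 by 16.03%, 14.5% and 14.2%. No outermost region had the lowest value, 10, which the list gives to 1 adjoining and 12 inner regions, or 0.03% and 0.05% of them. At equal peak value the widths were close: regions at 18 had a median of 437 bp in the outermost, 427 bp in the adjoining and 432 bp in the inner part, and regions at 13 of 91, 95 and 96 bp.

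Inside the megabase, the pooled width and the share at the highest peak value were higher with each step of 250 kb away from the end. In steps of 250 kb, the pooled median width was 185, 197, 207 and 226 bp and the share at 18 was 15.0%, 16.1%, 19.02% and 22.6%. Between 1 and 3 Mb the widths lay between 193.5 and 219 bp, all below the 226 bp of the last step inside. The shares at 18 varied there between 18.4% and 25.9%, and the last 2 steps before 3 Mb, at 25.9% and 23.2%, lay above the 22.6%. In steps of 100 kb the rise was not steady. The width fell from 206.5 bp at 300 to 400 kb to 188 bp at 400 to 500 kb. The share at 18 was lowest within the megabase at 600 to 700 kb, 14.4%, and was 24.2% at 700 to 800 kb. It was 22.9% in the 100 kb just inside 1 Mb and 17.6% just outside. Per end, the median width was 188.9 bp ± 19.2 in the outer 0.5 Mb and 209.9 bp ± 23.8 in the inner 0.5 Mb of the megabase, and it was smaller in the outer one at 14 of 19 ends. The share at 18 was 15.6% ± 5.32 and 20.9% ± 4.95, smaller in the outer one at 13 ends (SD, n = 19 ends). This division was chosen after the values had been seen and got no test. The chromosome means of the outer minus the inner value were -21.1 bp ± 35.6 and -6.15 percentage points ± 7.18 (SD, n = 12 chromosomes).

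**Figure D5:**
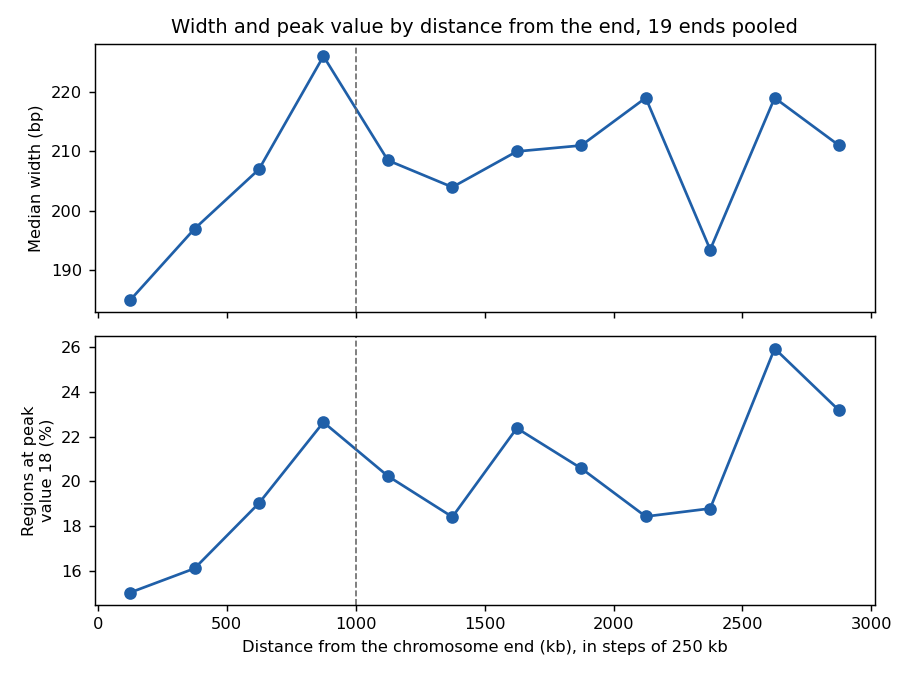
Pooled median width (top, in bp) and share of regions at the highest peak value (bottom, in percent) in steps of 250 kb from the chromosome end over 19 ends; axes do not start at 0 and the dashed line marks 1 Mb. Both are lowest in the first step, at 185 bp and 15.0%, and reach 226 bp and 22.6% in the fourth.

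Close spacing of regions did not differ detectably either. A neighbour less than 1000 bp away was present for 42.6% of regions ± 10.2 in the outermost megabase and 44.3% ± 5.91 in the adjoining sequence (SD, n = 19 ends). The lowest share, 18.75%, belonged to the sparse lower-coordinate end of chromosome 3 and the highest, 57.2%, to the dense higher-coordinate end of chromosome 7. The mean difference was -1.46 percentage points ± 8.68 (SD, n = 12 chromosomes; 95% interval -6.97 to 4.08), with 6 chromosomes in each direction (exact sign-flip permutation test, two-sided, p = 0.568, adjusted p = 0.568). Regions lie closer together where there are more of them, and the share was not adjusted for density.

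Chains of close regions reached 7 members at the ends. Joining regions with gaps under 1000 bp gave 333 groups of 2 or more that lay wholly in the outermost megabases, and 16 of these had 5 or more members. The 95 regions in groups of 5 or more were 5.01% of the outermost regions, against 6.50% of the adjoining and 5.95% of the inner ones. The largest groups had 7 members, and there were 6 of this size. The most compact of them spanned 3187 bp of chromosome 6, from 366703 to 369889, and the longest 5508 bp of chromosome 5, from 189598 to 195105. Chromosome 5 carried a second one, of 4929 bp from 29161364 to 29166292, near its other end, and the others lay on chromosomes 2, 4 and 7.

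There were 15 regions over 1000 bp at the ends, or 0.79% of the 1896, against 0.99% of the adjoining and 1.22% of the inner regions. The widest spanned 2208 bp of chromosome 6, from 30416284 to 30418491, and was followed by 1684 bp on chromosome 3, from 36133764 to 36135447. The third, 1636 bp on chromosome 4 from 34907442 to 34909077, and the fourth, 1473 bp on chromosome 12 from 26779115 to 26780587, had the highest peak value, as did the widest. On the sparse end of chromosome 11 the fifth, of 1374 bp from 28935535 to 28936908, lay 24.4 kb from the last region of the chromosome, and another wide region, of 1313 bp from 28931792 to 28933104, lay 28.2 kb from it. All of these were at higher-coordinate ends. At the lower-coordinate ends 1 region exceeded 1000 bp, on chromosome 1 from 481513 to 482847. The 19 ends include 12 higher-coordinate and 7 lower-coordinate ones, and the difference between the sides was not tested.

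The lower-coordinate ends of chromosomes 4, 9, 10, 11 and 12 were not among the 19. Among these, the short arms of chromosomes 4 and 10 are heterochromatin-rich, the short arm of chromosome 9 carries ribosomal RNA gene repeats near its tip, and those of 11 and 12 share a duplicated segment. Their outermost megabases held 52, 33, 50, 92 and 82 regions, against 17.5, 43.5, 42, 71 and 68 per Mb in the adjoining sequence. At all 5 the regions were narrower than in the adjoining sequence, with mean median widths of 166.1 bp ± 13.1 and 200.5 bp ± 15.7 (SD, n = 5 ends). The smallest medians were 151.5 bp at chromosome 11 and 155 bp at chromosome 4. These, 169.5 bp at chromosome 12 and 170.5 bp at chromosome 10 lay below the lowest of the 19 ends, 181 bp. The median at chromosome 9, 184 bp, did not.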

How the data were processed

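The deposited list holds 29978 open regions without telling libraries apart, each with a start and an end. Each region also has the attributes max (here called the peak value, a whole number from 10 to 18) and maxpos. The authors define neither attribute. Bowtie2 2.2.3 was the aligner, per the submitters' processing notes. Build, read filters, region caller and manner of pooling were not given in the sources used here. The list holds 0 columns of per-sample values, so the planned comparison of treatments was not made and the depth is unknown. Coordinates are 1-based, as listed. The gene table at hand belongs to the assembly ASM3414082v1, whose match to the list is not known, and was not used, so no gene or sequence is named.

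Windows were cut by the midpoint of each region. The end of the last region stood for the length of a chromosome, and 372.8 Mb was the sum over the 12. Each measure was taken per end, averaged within chromosomes, and tested over chromosomes by exact sign flips, a two-sided permutation test, with Benjamini-Hochberg adjustment over 7 tests and a threshold of 0.05. The 95% intervals are the shifts that this test does not reject. The code was tested on simulated lists. The members, tests and alternatives were chosen with earlier results of these data known. Named by rule were every end, the 5 widest regions, the largest group, the longest empty stretch and the first region of each lower-coordinate end. Other regions and stretches were named after their values were seen. Tools were Python 3.11.15, NumPy 2.4.6, pandas 2.3.3 and matplotlib 3.10.9.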

Additional observations from a re-analysis of the deposited data

How the results depend on the processing

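No paired analysis was possible because the list holds no value for any library. The 7 results were recomputed with all 24 ends, with the 12 higher-coordinate ends, with regions less than 150 bp apart merged, with regions of at least 100 bp, with regions at or above the median peak value of 15 (not for the share at 18), without each chromosome in turn and, added after seeing the data, with each end as a unit. The 2 sides could not be compared with the higher-coordinate ends alone or with single ends as units. For density and coverage other windows were tried, and the region that sets the higher-coordinate end was left out. The mean log2 ratio of density to the adjoining sequence changed sign, without passing, with all 24 ends (0.016), with 0.5 Mb against 0.5 to 1.5 Mb (0.030) and with 2 Mb against 2 to 6 Mb (0.0095). Without single chromosomes this ratio ran from -0.153, without chromosome 7, to -0.049, and did not pass. The difference in coverage changed sign with the 12 higher-coordinate ends (0.014 percentage points) and with 2 Mb (0.029). It ran from -0.323 to -0.149 without single chromosomes, and passed without chromosome 7. The difference in width passed with all 24 ends (-14.6 bp) and without chromosome 7, ran from -11.9 to -8.34 bp without single chromosomes, and from -16.0 to -3.42 bp over all alternatives. The causes were not tested. The other 4 results kept their direction and did not pass under any alternative run, with adjusted p from 0.0701 to 0.942. With 12 chromosomes of a single list, a missed threshold does not show that ends and adjoining sequence are alike.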
